A study of Mus musculus with 2 samples.

Results

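The genes described here encode the proteins of the mitochondrial ribosome in the mouse. They were taken as all protein-coding genes of the GENCODE M21 annotation whose symbol begins with Mrpl or Mrps followed by a number, which gave 78 of 21938 protein-coding genes, 49 named Mrpl and 29 named Mrps. Open chromatin at these genes was read from ATAC-seq, in which a transposase inserts sequencing adapters into accessible DNA. The cells were G1E, a male mouse line of strain C57BL/6J described in the labels as a Gata1- erythroid progenitor, so every library lacks functional GATA1, the transcription factor needed for terminal red cell maturation. The series holds 1 group with 2 biological replicates of 50000 cells each and no treatment. It is 1 cell line, and the labels do not say whether the replicates came from separate cultures.

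The mitochondrial ribosome translates the few messenger RNAs of the mitochondrial genome, which encode core subunits of the respiratory chain and of ATP synthase. Its ribosomal RNAs come from the mitochondrial genome, whereas all of its proteins are encoded in the nucleus and imported, so their promoters are in nuclear chromatin. Large subunit proteins surround the peptidyl transferase centre and the exit tunnel, and small subunit proteins surround the decoding centre. Promoters of nuclear genes for mitochondrial proteins are known for binding sites of NRF1, of the ETS factor GABP and of YY1, and erythroid cells use mitochondria for heme synthesis.

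The deposited peak lists of the thresholded kind held 21194 merged regions in replicate 1 and 22620 in replicate 2. They give no read totals, so depth is unknown, and absence of a region means only that none was listed. A promoter region is a merged peak lying no more than 1000 bp from an annotated start of the gene. Its signal is the authors' enrichment value of its strongest peak, and its percentile is the rank of that signal within the replicate's own list. Of 10 genes known as markers of erythroid progenitors, 9 had a promoter region in each replicate and Gata2 had none in either, while 0 of 10 hepatocyte and neuron markers had one. Gata1 itself had a promoter region in both replicates. Since the position of the Gata1 lesion is not in the labels, that region checks nothing about the genotype.

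Sequences at 3 kinds of promoter are shown first, because the motif counts given later rest on them. All are from GRCm38 (mm10), are written 5′ to 3′ in the direction of the named gene, and have the motif letters in capitals. A motif was counted where its exact letters occurred on either strand within 200 bp centred on the summit of the strongest region. The ETS core was CCGGAAG, which reads CTTCCGG on the other strand. The promoter of Mrps26, a small subunit protein without a bacterial counterpart, had the strongest mean rank among promoters holding it, and is shown as 197 bases at chr2:130563575-130563771 on the plus strand. Its ETS letters begin 1 bp downstream of the start site.
Mrps26: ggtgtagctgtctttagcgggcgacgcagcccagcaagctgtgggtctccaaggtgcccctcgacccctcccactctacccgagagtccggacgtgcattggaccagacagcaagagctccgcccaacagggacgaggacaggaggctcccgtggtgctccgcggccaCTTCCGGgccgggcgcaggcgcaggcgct

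Mrps27, a pentatricopeptide repeat protein of the small subunit, held both the ETS letters and the YY1 letters. The 183 bases shown lie at chr13:99344676-99344858 on the plus strand. The ETS letters lie 48 bp upstream of the outer start site, and the YY1 letters begin 12 bp downstream of the nearest one.
Mrps27: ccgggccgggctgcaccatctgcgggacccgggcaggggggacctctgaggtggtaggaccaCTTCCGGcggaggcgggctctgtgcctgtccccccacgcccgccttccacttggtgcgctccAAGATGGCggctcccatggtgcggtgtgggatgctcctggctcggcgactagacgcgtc

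The next 3 strongest promoters with ETS letters belonged to Mrps35, Mrps12 and Mrps18c. Each is shown as 30 bases around the site, at chr6:147042726-147042755 (plus), chr7:28741803-28741832 (minus) and chr5:100798592-100798621 (plus).
Mrps35: caggttacacaCTTCCGGtcccgccccctc
Mrps12: taaggaggaaccCCGGAAGgggctggaggt
Mrps18c: gggtcacgtgaCTTCCGGcccgggaagcgc

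The YY1 core was AAGATGGC. It is shown for 6 further genes with a match in both replicates, at chr4:107066822-107066851 (minus), chr7:78783013-78783042 (minus), chr17:46111004-46111033 (plus), chr10:95501904-95501933 (minus), chr17:47368893-47368922 (plus) and chr11:5707647-5707676 (minus). In all of these the letters read in the direction of the gene. Mrps11, which also had a match in both replicates, is not printed. Its site is that of Mrpl46, and the letters there read against the direction of Mrps11.
Mrpl37: ctgcacgggcaAAGATGGCggcgtccaggt
Mrpl46: gggaagacagaAAGATGGCggcgcccgtag
Mrps18a: aggtgcgttccAAGATGGCggccctcaggg
Mrpl42: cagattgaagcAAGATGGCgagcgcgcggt
Mrps10: atcagggcaccAAGATGGCggcgcgcgcag
Mrps24: cgcgccggcccAAGATGGCgtggtccgcgt

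The NRF1 letters, a palindrome of 10 bases, occurred in 3 promoters in both replicates. The sites lie at chr13:14613105-14613134 (minus), chr16:84735350-84735379 (minus) and chr3:94443298-94443327 (plus).
Mrpl32: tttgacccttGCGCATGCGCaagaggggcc
Mrpl39: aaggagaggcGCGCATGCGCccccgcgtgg
Mrpl9: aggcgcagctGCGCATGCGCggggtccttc

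Nearly the whole gene set was marked by open promoters in G1E. A promoter region was listed for 72 of 78 genes (92.3%) in replicate 1, where 40.5% of all protein-coding genes had one. In replicate 2 it was listed for 75 genes (96.2%), beside 42.1% of all protein-coding genes. The mean share was 94.2% ± 2.72 (SD, n = 2). In both replicates 71 genes (91.0%) had one, against 39.1% of all protein-coding genes, 5 had one in 1 replicate alone, where the share of all genes was 4.52%, and 2 had none. Many of these promoters are CpG-rich: the ratio of observed to expected CpG from 250 bp upstream to 50 bp downstream of the outermost start had a median of 0.820, against 0.525 for all genes, and 64 of 78 (82.1%) reached 0.6, as did 44.4% of all genes. Among the 9734 protein-coding genes at that ratio or above, 64.6% had a promoter region in both replicates. The part of CpG content in the count was not tested further.

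Both subunits were covered. Of the 49 Mrpl genes, 46 had a promoter region in replicate 1 and 48 in replicate 2, with 45 in both and 0 in neither. Of the 29 Mrps genes the counts were 26 and 27, with 26 in both and 2 in neither. Of 44 genes whose proteins have a counterpart in the bacterial ribosome, 40 had a region in both replicates, and of 29 without such a counterpart, 26 did. The other 5 genes, Mrpl55, Mrps18a, Mrps18b, Mrps28 and Mrps36, were in neither list. The authors' conservative list of both replicates together held a promoter region for 72 genes, beside 39.8% of all protein-coding genes.

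**Figure D1:**
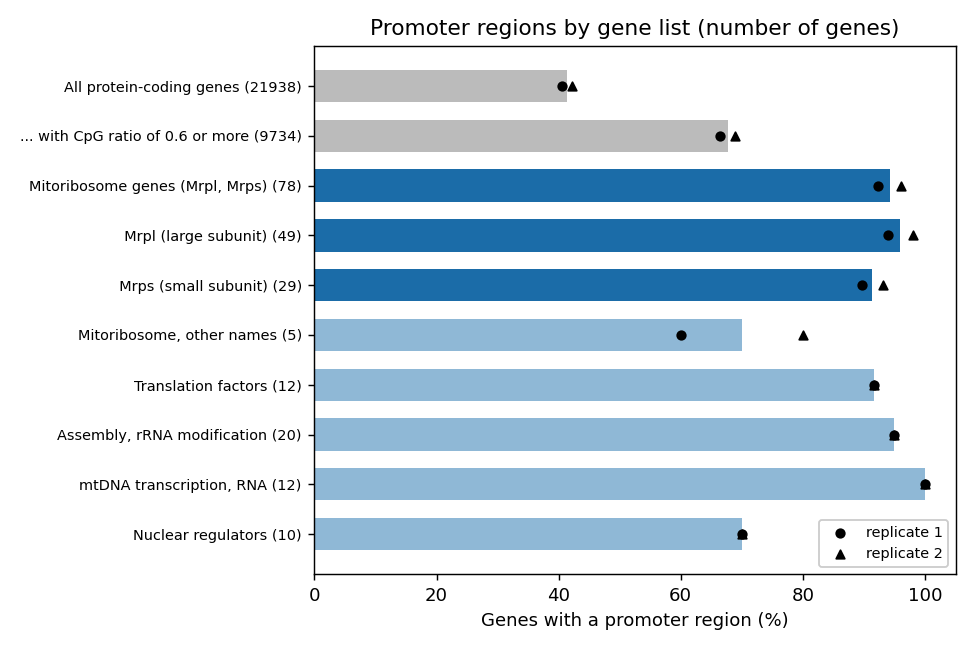
Percent of genes with a promoter region (horizontal axis) for all protein-coding genes and those with a CpG ratio of 0.6 or more. Below are the Mrpl and Mrps genes and 5 other lists. These are mitoribosome proteins with other names, translation factors, assembly and ribosomal RNA modification, mitochondrial transcription and RNA, and nuclear regulators. Bars are means of the 2 replicates and the symbols are the replicates; the Mrpl and Mrps bars stand at 94.2% together and the bar for all genes at 41.3%.

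The openings were of ordinary strength for a promoter. The median signal of the Mrpl and Mrps promoters was 10.1 in replicate 1 and 11.6 in replicate 2, and the medians over all protein-coding genes with a promoter region were 10.4 and 11.6. Median percentiles were 67.5 and 71.8, against 70.1 and 71.8 for all such genes. The median width was 489.5 bp and 517 bp, against 488 bp and 508 bp. Individual genes nevertheless spanned nearly the full scale, from a signal of 3.78 to 18.7 in replicate 1 and from 4.70 to 20.3 in replicate 2. The ranks of the replicates went together over the 71 genes with a region in both (Spearman rho 0.813, a description over genes of the same 2 libraries), with a median absolute difference of 8.35 percentile points and a largest one of 47.4, at Mrpl11.

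**Figure D2:**
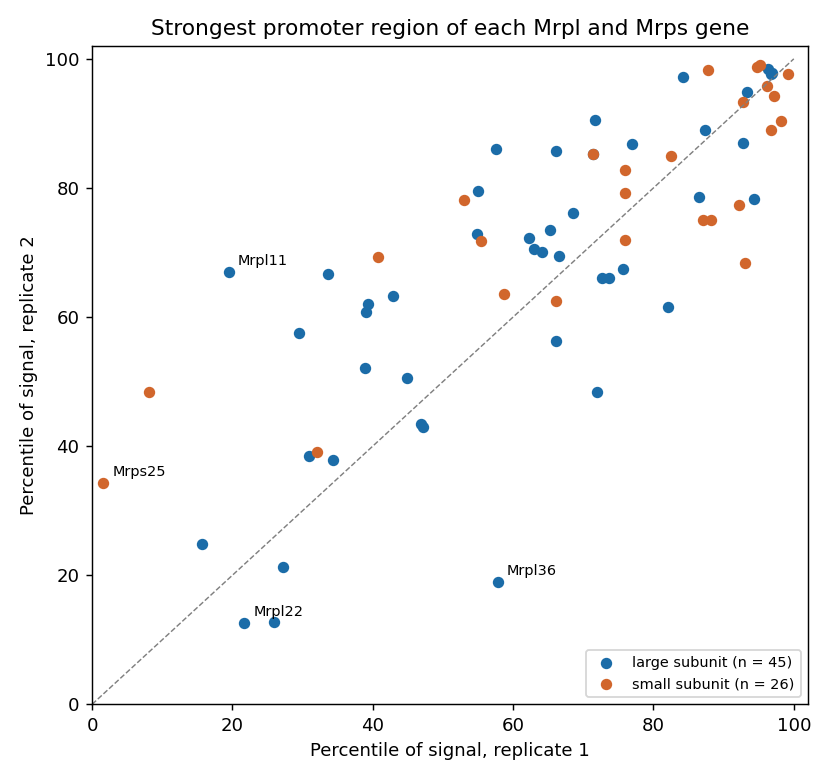
Signal percentile of the strongest promoter region in replicate 1 (horizontal axis) and replicate 2 (vertical axis) for the 71 genes with a region in both; each point is a gene, coloured by subunit as its symbol names it, and the dashed line marks equal percentiles. Points follow the line, with Mrpl11 above it and Mrpl36 below it, and Mrps genes crowd the upper right corner.

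Mrps promoters ranked higher than Mrpl promoters in both libraries. The median percentile of the Mrps promoters was 84.8 in replicate 1 and 78.2 in replicate 2, and that of the Mrpl promoters 63.5 and 66.8. The quartiles overlapped: they ran from 60.6 to 94.3 and from 68.9 to 91.8 for Mrps, and from 39.5 to 75.2 and from 47.1 to 81.0 for Mrpl. At or above the 90th percentile lay 10 and 8 of the Mrps promoters and 6 and 6 of the Mrpl promoters. Symbols do not always follow the protein: Mrps30 and Mrps18a are now known as large subunit proteins, and Mrps36 as part of the oxoglutarate dehydrogenase complex. With Mrps30 and Mrps18a moved and Mrps36 left out, the small subunit medians were 87.1 and 78.3 and the large subunit medians 63.5 and 67.2. The difference between the subunits was not tested, since genes are not replicates of a condition. Genes with and without a bacterial counterpart had medians of 68.7 and 68.5 in replicate 1 and of 66.0 and 76.2 in replicate 2, so the order of these groups was not the same in both.

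The 10 strongest promoters were led by Mrps9, a small subunit protein whose bacterial counterpart contacts the transfer RNA. Its region on chromosome 1 (42850783 to 42851538 in replicate 1) had a signal of 18.7 in replicate 1 and 18.8 in replicate 2, with deposited −log10 p values of 80.8 and 85.2. Its summits lay 97 and 71 bp upstream of the start, outside the gene. Its mean percentile was 98.4. The CpG ratio at Mrps9 was 0.537, under the 0.6 used above.

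Among the small subunit genes Mrps26 had signals of 15.8 and 20.3, the latter the highest of any Mrpl or Mrps promoter in replicate 2. Mrps17, a conserved protein that binds ribosomal RNA, had 15.6 and 19.7. Mrps14 had 16.3 and 17.6. These genes stood at a mean percentile of 96.0 or above. Mrps35, a protein without a bacterial counterpart, had 16.9 and 16.8. Mrps15 had 17.6 and 15.5. Both were above the 90th percentile in each replicate.

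Of the large subunit genes, Mrpl50 had signals of 16.4 and 19.4, Mrpl18, whose protein is the counterpart of the bacterial protein that binds the small ribosomal RNA of the large subunit, had 16.7 and 18.9, and Mrpl37 had 16.6 and 18.8. Their mean percentiles were 97.4, 97.3 and 97.2. Mrpl44, a protein with a ribonuclease III fold, had 15.0 and 17.1 and a mean percentile of 94.1. All 4 of these regions lay at a start shared with another protein-coding gene on the other strand.

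The 5 weakest promoters with a region in both replicates were those of Mrpl22, Mrps25, Mrpl4, Mrpl24 and Mrpl55, with mean percentiles from 17.1 to 24.2. Mrpl22 and Mrpl24, whose proteins lie along the peptide tunnel, had signals of 5.84 and 5.66, and of 5.42 and 6.63. Mrpl4 had 6.21 and 5.68, and Mrpl55 had 6.27 and 6.34. Each of these signals is below the median of the gene set in its replicate. Mrps25, with signals of 3.78 and 7.42, stood at the percentiles 1.59 and 34.2. In replicate 1 its listed region had its summit 259 bp downstream of a start site and covered none, and a lenient-list region with a signal of 5.07 covered the outer start instead.

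The 2 genes without a promoter region in either thresholded list were Mrps34 and Mrps2, both of the small subunit. Mrps34, a protein without a bacterial counterpart, starts at 24895116 on chromosome 17 on the plus strand. Its nearest annotated start is 29 bp from one of Eme2, an endonuclease subunit gene on the opposite strand. Mrps34 had no promoter region in the lenient list of either replicate or in the conservative list. The nearest thresholded regions were 7563 and 7590 bp away, with signals of 7.32 and 7.83. Its CpG ratio of 0.929 was above the median of the gene set. Mrps2, the counterpart of a universal small subunit protein, starts at 28468066 on chromosome 2. It did appear in the lenient lists, with signals of 3.99 and 6.34 across its start, whereas the nearest thresholded regions were 115073 and 115097 bp away.

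For 4 of the 5 genes called in 1 replicate, the lenient list of the other replicate held a promoter region. Signals are not scaled between libraries, so these values show presence and not a difference. Mrpl16 had a signal of 6.79 in replicate 2 and 4.70 in the lenient list of replicate 1. Mrpl52 had 7.67 in replicate 2 and 6.04 in the lenient list of replicate 1. Mrpl49 had 7.29 in replicate 1 and 6.52 in the lenient list of replicate 2. Its nearest annotated start is 59 bp from one of Fau, a cytosolic ribosomal protein gene. Mrps5 had 4.70 in replicate 2, near the bottom of that list, and 6.93 in the lenient list of replicate 1. Mrpl3, a conserved protein near the peptidyl transferase centre, had 6.24 in replicate 2 and was not in the lenient list of replicate 1. In the lenient lists 76 genes (97.4%) had a region in replicate 1, 77 in replicate 2, and 76 in both, against 44.9%, 46.6% and 43.3% of all protein-coding genes.

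Taking the stronger 50% of regions gave 51 genes (65.4%) in replicate 1 and 58 (74.4%) in replicate 2. The shares of all protein-coding genes were 29.3% and 31.2%. In both replicates 49 genes of the set (62.8%) remained, a count not made over all protein-coding genes. Of the 71 genes called in both replicates, 70 were called at the same region, which was not counted over all protein-coding genes. The exception was Mrpl36, the counterpart of a small bacterial large subunit protein. In replicate 1 its region on chromosome 13 (73328431 to 73328691, signal 8.93) lay at the outer start shared with Ndufs6, a complex I gene. In replicate 2 the thresholded region lay at another annotated start (73330872 to 73331082, signal 6.18), while the lenient list held the outer one with a signal of 7.14.

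Summits sat close to an annotated start. Distances were taken to the nearest of all annotated starts, whose number per gene was not compared with that of all genes. The median distance of the strongest summit from the nearest start site was 44 bp in replicate 1 and 33 bp in replicate 2, against 73 and 70 bp for all protein-coding genes with a promoter region. It was within 100 bp for 60 of 72 genes (83.3%) and 63 of 75 (84.0%), where the shares of all genes were 61.5% and 63.1%. Of the regions, 70 (97.2%) and 75 (100%) covered a start site, against 85.3% and 86.7%. In 53 and 57 genes the summit was upstream of the start. The median signed distance was -30 and -22 bp, against -52 and -50 bp for all protein-coding genes with a promoter region, so upstream summits are general. By annotation 38 and 42 summits lay outside the gene, 27 and 28 in an exon outside the coding part, and 7 and 5 in an intron. These classes were counted for this gene set only.

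The farthest upstream summits were those of Mrpl15, at 456 and 454 bp, and Mrps18b, at 452 and 424 bp. These genes were picked out after their values were seen, as was Mrpl43, whose summits lay 162 and 135 bp upstream. Both distances exceed the 116 bp between the nearest annotated starts of Mrpl43 and Twnk, the mitochondrial DNA helicase gene.

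**Figure D3:**
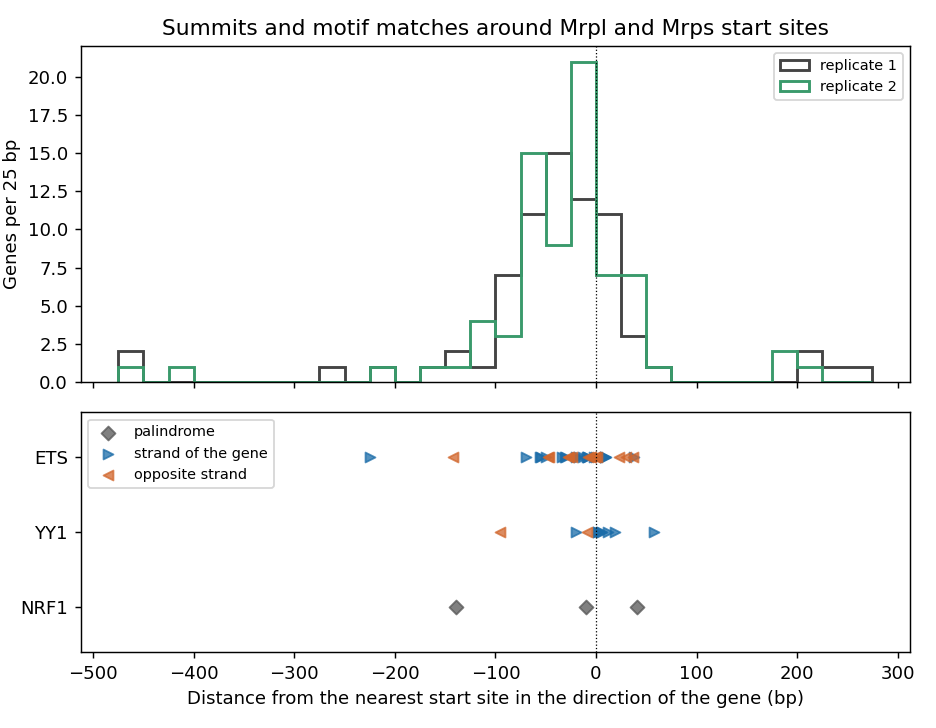
Upper panel: number of Mrpl and Mrps genes per 25 bp by distance of the strongest summit from the nearest start site, in bp in the direction of the gene, for each replicate. Lower panel: first base of each ETS, YY1 and NRF1 letter match from either replicate on the same axis, with symbols for its strand; most summits lie within 100 bp of the start and YY1 matches cluster at or just after it.

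More than 1 promoter region in both replicates was listed for 5 genes (6.41%), beside 5.77% of all protein-coding genes, a share near that background. Mrpl48 had 3 regions in each replicate, all within 1000 bp of annotated starts, with signals of 7.41, 7.27 and 15.4 in replicate 1 and of 6.91, 10.4 and 12.7 in replicate 2. Mrpl41 had 1 region at its start, with signals of 8.60 and 13.0, and another with its summit at -859 and -846 bp from the start, with 6.91 and 8.57. Mrpl14 had regions at different starts, the stronger with 12.3 and 10.2 and the weaker with 4.40 and 6.12, and in replicate 2 a further pair with 3.67 each. Mrps28 and Mrps36 each had adjacent regions, the stronger with 13.3 and 12.2 at Mrps28 and with 11.3 and 11.7 at Mrps36. In each of these 5 genes the strongest regions of the 2 replicates overlapped.

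Shared promoters were frequent in the set. Another gene began on the opposite strand within 1000 bp of a start in 37 genes (47.4%), against 22.7% of all protein-coding genes, and in 33 (42.3%) such a neighbour was protein-coding, against 12.3%. The median distance of these starts was 51 bp, and 28 of the 37 lay upstream. The strongest region was also a promoter region of another protein-coding gene for 32 genes (44.4%) in replicate 1 and 31 (41.3%) in replicate 2, against 26.1% and 25.9% of all protein-coding genes with a region. The signal of such a region cannot be assigned to either gene. Genes with a coding neighbour had median percentiles of 66.6 and 73.5, and the other 45 had 68.5 and 70.1.

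A few neighbours were picked out as examples after the list was seen, without a count of their functions over the 33. Distances are between the nearest annotated starts of each pair, which need not be the outermost ones. Mrpl46, of the large subunit, and Mrps11, of the small subunit, begin 30 bp apart on chromosome 7 by this measure. Their outermost starts are at 78783531 and 78783119, and they share 1 region, with signals of 10.6 and 14.2. Mrpl43 begins 116 bp from Twnk and shared its region, with 9.78 and 11.9. Mrpl47 begins 20 bp from Ndufb5, a complex I gene, and had 10.6 and 15.5. Mrps12, a protein of the decoding centre, begins 172 bp from Sars2, the mitochondrial seryl-tRNA synthetase gene, and had 13.5 and 19.4. Mrps27 begins 81 bp from Ptcd2, which encodes another pentatricopeptide repeat protein. Among neighbours with other roles, Mrpl18 begins 16 bp from the chaperonin gene Tcp1, and Mrpl32 75 bp from the proteasome gene Psma2.

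ETS letters were the most frequent of the 3 motifs chosen for this gene set. They occurred in 26 of 71 distinct promoter windows (36.6%) in replicate 1 and 29 of 74 (39.2%) in replicate 2, against 19.3% and 19.9% of windows of the same length at all protein-coding promoters. The median first base of a site lay 8 bp upstream of the start in both replicates, and 27 of 29 and 31 of 33 sites lay within 100 bp. Only the 200 bp centred on the summit were searched, and most summits lay within 100 bp of a start. The search thus favours such positions by construction, and the same share at all promoters was not counted. Of the Mrps genes with a region, 13 (50%) and 13 (48.1%) held a match, and of the Mrpl genes 13 (28.3%) and 16 (33.3%). In 24 genes the match was present in the windows of both replicates, a count that was not made over all promoters. Genes with ETS letters had median percentiles of 74.2 and 71.9, and genes without them 66.1 and 69.8. The 24 genes ranged in mean percentile from 97.1 at Mrps26 to 19.3 at Mrpl4, and the promoters printed above were taken from the upper end of that range.

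YY1 letters occurred in 7 of 71 windows (9.86%) and 9 of 74 (12.2%), against 3.96% and 4.34% of all protein-coding promoter windows. Since Mrpl46 and Mrps11 share 1 window, these are 8 and 10 sites counted by gene, and the shared site reads with Mrpl46 and against Mrps11. The letters read in the direction of the gene at 7 of 8 and 8 of 10 sites (87.5% and 80%), against 69.3% and 68.1% at all protein-coding promoters. They read in that direction and lay at or downstream of the start at 75% and 70% of sites, against 39.8% and 39.3% at all protein-coding promoters. For the set the start nearest to the middle of the letters was used, and for all promoters the start nearest to their first base. In 5 of 8 and 6 of 10 sites the ATG inside AAGATGGC was the annotated start codon, against 29.9% and 32.1% of sites at all protein-coding promoters. These genes were Mrpl46, Mrps10, Mrps18a, Mrps24 and Mrps27, and in replicate 2 also Mrpl35. A letter match at a start codon is thus also coding sequence.

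The strongest promoter with YY1 letters was that of Mrpl37, where they lay 20 bp upstream of the nearest start. Mrps24, at the other end, had signals of 4.77 and 8.70. ETS and YY1 letters occurred together in 3 genes, Mrps27, Mrps18a and Mrps10, in both replicates. NRF1 letters occurred in 3 windows in each replicate (4.23% and 4.05%), against 1.47% and 1.58%, and the shorter form GCATGCGC in 6 (8.45%) and 5 (6.76%), against 4.6% and 4.69%. The full letters belonged to Mrpl32, with signals of 11.4 and 14.5, Mrpl39, with 10.2 and 12.4, and Mrpl9, with 9.68 and 11.4. At least 1 of the 3 motifs was present in both replicates in 32 genes. Neither this count nor that of ETS and YY1 letters together was made over all protein-coding promoters.

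Other motifs, added after the first 3 were counted, were near or below their shares at all promoters. SP1 letters (GGGCGG) occurred in 54.9% and 54.1% of windows, against 59.7% and 60.5%. CCAAT occurred in 31.0% and 33.8%, against 40.3% and 39.6%. The E-box CACGTG occurred in 5.63% and 6.76%, against 8.57% and 8.59%, and the cyclic AMP response element TGACGTCA in 1.41% and 1.35%, against 3.60% and 3.71%. AGATAA, the letters of a GATA site, occurred in 7.04% and 6.76%, against 5.81% and 5.36%. All were matched on both strands, and matches of different motifs may overlap.

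**Figure D4:**
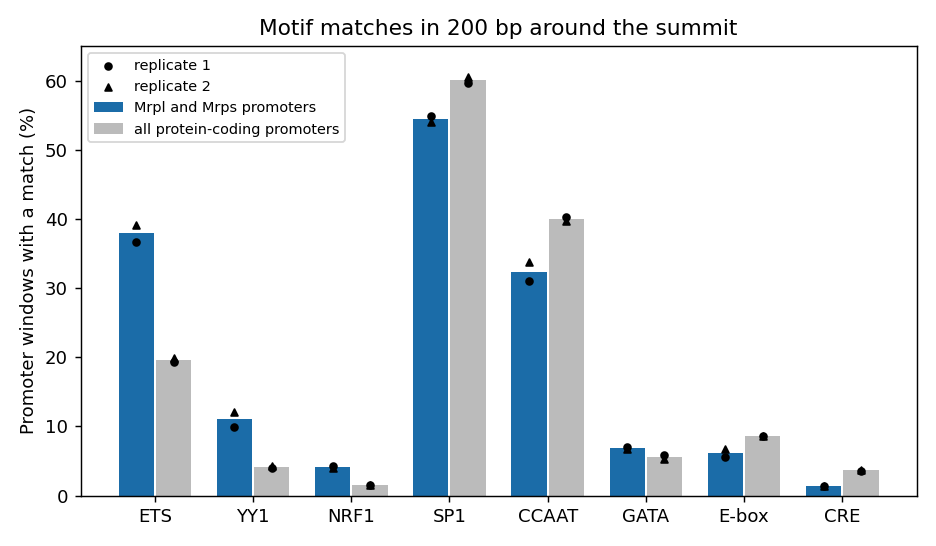
Percent of promoter windows of 200 bp around the summit that hold exact letters of 8 motifs (vertical axis), for Mrpl and Mrps promoters (blue) and all protein-coding promoters (grey). Bars are means of the 2 replicates and symbols the replicates; ETS letters stand at 36.6% and 39.2% in the Mrpl and Mrps promoters against 19.3% and 19.9% in all.

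Most of these genes had no distal region nearby, as was the case among all genes. A region present in both replicates, over 1000 bp from every annotated start and within 50 kb of the outermost start, was found for 30 genes (38.5%), beside 32.3% of all protein-coding genes. The median number per gene was 0 in the set and among all genes. Mrps36 had the most, 4, with signals from 6.78 to 7.16 in replicate 1 and from 6.23 to 7.64 in replicate 2. Mrpl9, Mrpl14, Mrpl38, Mrpl47, Mrpl50 and Mrps7 had 2 each. Over the 38 distinct distal regions, AGATAA occurred in 14 (36.8%), against 45.3% of all distal regions, and the CTCF letters (CCA, AG and GGC, each 2 bases apart, on either strand) in 5 (13.2%), against 4.93%.

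The strongest distal region lay inside Mrps27. It was at chromosome 13, 99353102 to 99353562, in an intron 8.55 kb downstream of the start, with signals of 22.1 and 22.3 at the 99.9th and 99.7th percentile. Both values were higher than at any Mrpl or Mrps promoter, including that of Mrps27, which had 13.6 and 12.2. Neither AGATAA nor the CTCF letters occurred in its window.

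Most other genes of mitochondrial translation were open at their promoters as well. Of 12 translation factor genes, 11 had a promoter region in each replicate and 10 in both. Gfm1, the elongation factor G1 gene, had signals of 13.1 and 19.4, and Gfm2, whose product recycles ribosomes, had 14.7 and 14.9. Guf1 was listed in replicate 2 alone, with 7.53, and Mtfmt, the methionyl-tRNA formyltransferase gene, in replicate 1 alone, with 6.84. Of 20 genes for assembly and ribosomal RNA modification, 19 had a region in both and Mrm3, a ribosomal RNA methyltransferase gene, had none. The strongest were Mettl17, with 16.5 and 20.05, and Mterf4, with 14.2 and 17.3.

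Mitochondrial transcription, replication and RNA processing were represented by 12 genes, and all 12 had a promoter region in each library, of which 10 covered a start site. Pnpt1, for polynucleotide phosphorylase, had signals of 16.7 and 19.8, and Elac2, for the 3′ processing enzyme of tRNAs, had 16.5 and 17.9. Of 5 mitoribosome proteins with other names, Aurkaip1 (12.9 and 12.7), Ptcd3 (7.05 and 8.96) and Dap3 (5.68 and 8.10) were listed in both. Chchd1 was listed in replicate 2 alone, with 6.36, and Gadd45gip1 in neither.

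Of 10 nuclear regulators, 7 had a region in each replicate and 6 in both. Gabpa, which encodes the DNA-binding subunit of GABP, had 10.9 and 15.7, Esrra had 13.9 and 13.0, and Yy1 had 9.16 and 8.82. Gabpb1 was listed in replicate 2 alone, with 4.80, Ppargc1b in replicate 1 alone, with 4.34, and Nrf1 and Ppargc1a in neither. For comparison, a region in both replicates was listed for 69 of 79 cytosolic ribosomal protein genes and 63 of 71 respiratory chain genes, beside the 71 of 78 Mrpl and Mrps genes. No difference between these gene sets was tested.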

How the data were processed

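ATAC-seq peak lists of 2 G1E replicates were used, on mm10 per the labels. For every peak the authors deposited a signal, which is the caller's enrichment and is not scaled between libraries, and a −log10 p value. The aligner and the peak caller are not named in the labels or file notes used here. Of the lists, 5 were used: the thresholded and lenient list of each replicate and the conservative list of both. Overlapping or touching peaks were merged, from 26083 to 21194 and from 27810 to 22620 regions, and the strongest peak in a region gave its summit and signal. Positions were compared with GENCODE M21. The genome sequence was checked by the first 20 bases of the transcripts of the genes described, of which 340 of 343 matched. Counts and medians are given beside those over all 21938 protein-coding genes. No test was made, as there is 1 group.

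The genes and lists were chosen with earlier results of these data known. Named genes were those without a region in 1 or both replicates, the 10 strongest and 5 weakest by mean percentile, those with more than 1 region in both, the leading 3 per motif, those with most distal regions, and in other lists those without a region in both and the 2 strongest. Yy1, Dap3, the genes named for a neighbour and any others outside this rule were chosen after their values were seen. Chosen after the data were seen were the further motifs, the start codon and distal letter counts, the subunits by protein, and the cell type markers. The markers were Kit, Gata2, Tal1, Klf1, Epor, Myb, Gfi1b, Lmo2, Zfpm1 and Tfrc for erythroid progenitors, and Alb, Ttr, Apoa2, Fgb, Cyp7a1, Snap25, Syt1, Gfap, Rbfox3 and Gria2 for hepatocytes and neurons. Printed sequences were shortened where a window ran over 30 bases into an untranslated region. Alternatives were other windows, start sites and lists, leaving out each replicate, and other motif widths. Python 3.11.15, pandas 2.3.3, numpy 2.4.6 and scipy 1.17.1 were used, and the counting was tested on simulated data.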

Additional observations from a re-analysis of the deposited data

How the results depend on the processing

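The number of genes with a promoter region in both replicates was 71 with windows of 500 or 2000 bp, with basic protein-coding start sites and with the summit itself in the window, 67 with outermost starts, 76 in the lenient lists and 49 among the stronger 50% of regions. The mean share with a region (94.2%) was 98.1% in the lenient lists, 69.9% in the stronger 50% and 89.7% with outermost starts. The median percentile (69.7) was 81.3 in the lenient lists and 76.9 in the stronger 50%, where it is ranked in another list. The median summit distance (38.5 bp) was 58 bp with outermost starts. ETS matches (37.9%) were 26.2% and 44.8% in windows of 100 and 400 bp. NRF1 matches (4.14%) were 2.76% in 100 bp windows, 3.97% in the lenient lists and 7.60% with the 8 letters GCATGCGC, an alternative chosen after seeing the data. YY1 matches (11.0%) were 6.87% and 16.6% in windows of 100 and 400 bp. Genes with a distal region numbered 15 within 25 kb, 44 within 100 kb and 38 in the lenient lists, in place of 30. Leaving out a replicate gave 72 to 75 genes, 67.5 to 71.8 for the percentile, 33 to 44 bp, 36.6% to 39.2% ETS matches and 37 genes with a distal region. The cause of these shifts was not tested beyond what each setting changes by construction. Values over all protein-coding genes were not counted for the other motif windows, the other distal distances or the outermost starts. No paired analysis was possible because the series has 1 group. Depth is unknown, so a promoter without a listed region, such as that of Mrps34, cannot be told from a missed one.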
